A study of Homo sapiens with 32 samples.

Results

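The comparison set Ishikawa cells given the kinase inhibitor SM08502 against Ishikawa cells given vehicle. Ishikawa is a human endometrial cancer line labelled as wild type for CTNNB1, which encodes beta-catenin. The labels' line name and treatment chose its members, 4 of the 32 RNA sequencing libraries of the series: 2 with SM08502 at 80 nM and 2 with vehicle (0.1% DMSO), all after 24 h. The dose was the one that lowers viability of this line by 50%, and each library was made from 350 ng of total RNA after removal of ribosomal RNA. A further 4 Ishikawa libraries, 2 with 11 nM paclitaxel and 2 with paclitaxel and SM08502 together at these doses, and the SM08502 (85 nM) and vehicle libraries of Ishikawa-S33Y (500 ng of RNA each), a CTNNB1-mutated line, served for comparison. Plates were set up in duplicate and nothing further says how the replicates were kept apart. The p-values come from a fit over all 32 libraries and measure only the spread between replicate libraries, pooled over every group. The other libraries were of Ishikawa-S33Y with paclitaxel, alone or with SM08502, and of the lines SNGM and HEC265 with vehicle or the same drugs at other doses. They entered only that fit. Levels are in CPM, reads per 1000000 counted. Changes are differences in log2(CPM + 1), a scale that shrinks the change of weakly expressed genes.

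SM08502 inhibits the CDC-like kinases (CLK). These kinases sit in the nucleus and add phosphate to SR proteins, the RNA-binding factors that help the spliceosome pick exons. The CLK genes are themselves spliced in a regulated way, and much CLK1 and CLK4 RNA is held in the nucleus with introns retained. In endometrial cancer, beta-catenin is the switch of canonical Wnt signalling: Frizzled receptors and the co-receptors LRP5 and LRP6 keep it from being destroyed, and in the nucleus it acts with LEF1 and TCF proteins on target genes.

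The 4 libraries held 13.0 to 17.3 M reads (M is 1000000), so that 3 reads equal 0.173 to 0.230 CPM. Both SM08502 libraries differed from each other more than the vehicle libraries did: the log2 difference between replicates, as a root mean square over 6083 genes of higher level, was 0.478 with SM08502 and 0.223 with vehicle. Over the other groups of the series it ran from 0.0699 (HEC265 with vehicle) to 0.594 (Ishikawa with paclitaxel). Replicate 2 with SM08502 stood apart in composition, with 6.38% of reads from PLCG2 (2.35% to 3.12% in the other 3), 3.91% from mitochondrially encoded genes (6.81% to 10.8%) and 7.17% from ribosomal protein genes (4.83% to 5.50%). Counts are therefore also given without that library. All 16 epithelial and endometrial markers listed were at 1 CPM or more in every library. Of 14 markers of fibroblasts, vessels and blood cells, 8 stayed below 1 CPM in all 4 libraries, and with COL1A1 left out the list summed to 7.71 and 9.29 CPM with vehicle and 8.85 and 9.24 CPM with SM08502.

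SM08502 changed the level of 2582 of the 17011 genes tested (15.2%; limma, adjusted p under 0.05). Of these 1105 were higher (6.50% of genes tested) and 1477 lower (8.68%), so 42.8% of the calls were rises. After re-centring each library on its median gene, rises made up 53.3% of the calls, and the more frequent direction thus depended on scaling. At least 2-fold changes were called for 89 genes higher (0.523%) and 218 lower (1.28%). Without SM08502 replicate 1 these counts were 194 and 664, without SM08502 replicate 2 they were 84 and 126, with a pseudocount of 0.1 CPM 185 and 248, and with limma voom on recovered reads 260 and 340. Without SM08502 replicate 2, 418 genes were called higher (2.46%) and 588 lower (3.46%). Leaving out SM08502 replicate 1, vehicle replicate 1 or vehicle replicate 2 gave 3832, 1378 and 1160 calls in all. A fit to the 8 Ishikawa libraries alone called 48 genes, with 3209 at an unadjusted p under 0.05, so most calls rest on the spread estimated over all 32 libraries.

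**Figure D1:**
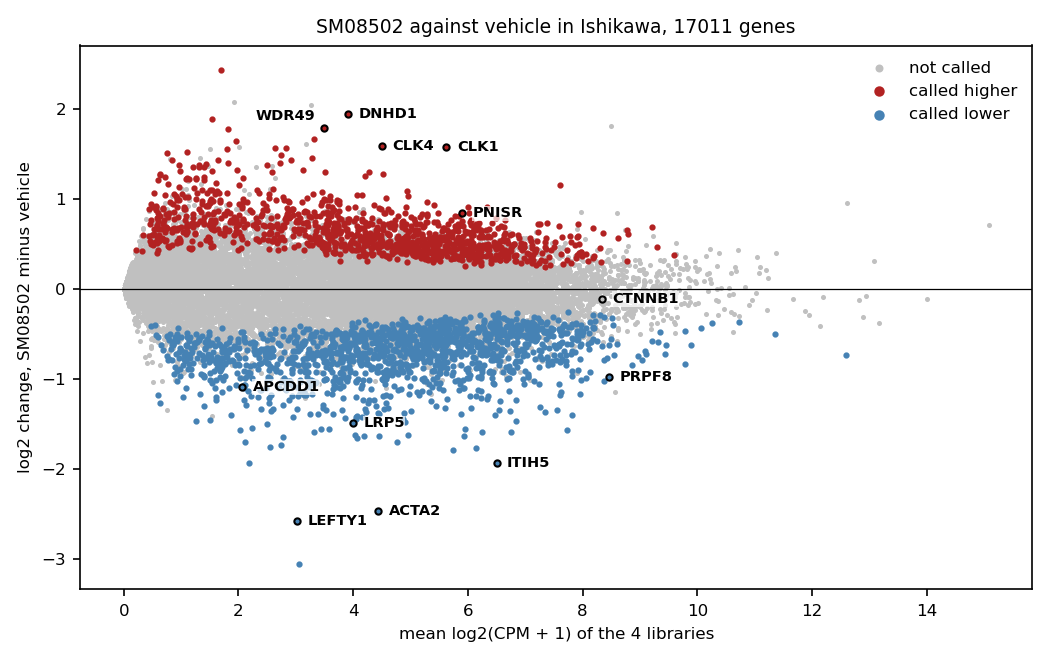
Each point is 1 of the 17011 genes tested, with the mean log2(CPM + 1) of the 4 libraries on the x axis and the log2 change with SM08502 on the y axis. Genes called higher are red (1105), genes called lower blue (1477) and others grey, and the labelled falls LEFTY1 (-2.58) and ACTA2 (-2.46) lie further from 0 than the highest labelled rise, DNHD1 (1.94).

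The genes with the largest falls included those of secreted antagonists, actin and matrix proteins. LEFTY1 (chr1:225886282-225889146, GRCh38), a secreted antagonist of Nodal signalling, stood at 18.0 and 19.9 CPM in vehicle replicates 1 and 2, and at 2.02 and 2.68 CPM in SM08502 replicates 1 and 2. Its log2 change was -2.58 (SE 0.25, adjusted p = 2.2e-06), and both treated libraries lay far under both controls. LEFTY2 (chr1:225936603-225941220), its neighbouring paralog with the same role, was at 24.7 and 33.2 CPM with vehicle and 9.19 and 7.72 CPM with SM08502 (-1.65, SE 0.15, adjusted p = 6.75e-07). Reads shared between these similar genes could be split by the counting. EDN2, which encodes a vasoconstrictor peptide, fell from 11.0 and 11.3 CPM to 2.78 and 2.55 CPM (-1.73, SE 0.20).

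ACTA2 (chr10:88935074-88991337), which encodes smooth muscle alpha-actin, fell from 55.6 and 45.0 CPM to 8.96 and 7.60 CPM. The log2 change was -2.46 (SE 0.27, adjusted p = 8.24e-06), a fold of 5.51 on this scale. ACTA2 overlaps FAS and an antisense gene in RefSeq, and because the strand of counting is not given in the sources used here its reads cannot be told from theirs. KRT5, a keratin of basal epithelial cells, went from 9.13 and 6.83 CPM to 1.27 and 1.40 CPM (-1.93, SE 0.18). SYNPO, an actin-associated protein, went from 8.88 and 10.7 CPM to 3.24 and 1.40 CPM (-1.75, SE 0.33). In each of these genes both SM08502 libraries were lower than both vehicle libraries, and every call held without SM08502 replicate 2.

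Other actin and smooth-muscle genes were looked up after ACTA2 had been seen, and are given as a description. ACTA1, the skeletal muscle actin, was at 17.1 and 17.8 CPM with vehicle and 6.24 and 4.50 CPM with SM08502 (log2 -1.55). TAGLN, an actin-binding protein, was at 290 and 294 CPM with vehicle and 120 and 139 CPM with SM08502 (-1.17). CNN1 (calponin), MYL9 (a myosin light chain) and ACTG2 (smooth muscle gamma-actin) had log2 changes of -1.03, -1.01 and -0.66, all called. MYH11, the smooth muscle myosin heavy chain, went the other way and was not called: 2.84 and 3.07 CPM with vehicle, 4.74 and 3.22 CPM with SM08502 (0.32). Thus 6 of these 7 genes were lower and 1 was not. Over all genes tested 8.68% were called lower, but a set picked by hand and not complete gives no share to set beside that. Without SM08502 replicate 2, or without either vehicle replicate, ACTG2 was no longer called, and CNN1 was not called without vehicle replicate 1. With a pseudocount of 0.1 CPM in place of 1 CPM, ACTA2 was called and none of the other 5 was.

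The CArG box is a short sequence known as the binding site of serum response factor in many actin and muscle genes. A search for exact matches on both strands in the 250 bases before each RefSeq start (GRCh38.p14) found it in 1.11% of the 17254 windows of tested genes and in 5 of the 221 windows (2.26%) of genes at least 2-fold lower. ACTA1 was among these 5. The ACTA1 window (chr1:229434095-229434344, minus strand) is shown with its match, 97 bases before the start, in capitals. The ACTA2 window with a start inside the gene (chr10:88952774-88953023, minus strand) held no exact match, nor did the window at the gene's outer start. The window inside the gene is shown for comparison. It does hold near matches, ccctatatgg and ccttgtttgg. The search did not count near matches, so its result does not show that ACTA2 lacks CArG boxes. A match describes the letters only.
ACTA1: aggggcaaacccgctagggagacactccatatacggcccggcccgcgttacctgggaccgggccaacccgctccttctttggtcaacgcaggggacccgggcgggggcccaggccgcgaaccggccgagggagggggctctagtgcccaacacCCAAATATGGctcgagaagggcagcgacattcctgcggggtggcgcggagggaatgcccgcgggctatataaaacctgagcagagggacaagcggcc
ACTA2: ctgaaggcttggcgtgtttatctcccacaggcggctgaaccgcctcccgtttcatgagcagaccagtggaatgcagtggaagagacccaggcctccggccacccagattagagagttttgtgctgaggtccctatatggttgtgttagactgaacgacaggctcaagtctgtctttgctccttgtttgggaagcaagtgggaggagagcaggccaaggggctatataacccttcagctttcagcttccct

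Matrix and adhesion genes were also among the largest falls. ITIH5, a secreted protein that binds hyaluronan, fell from 161 and 193 CPM to 55.8 and 36.9 CPM (-1.93, SE 0.27, adjusted p = 6.93e-05). COL5A2, a chain of type V collagen, fell from 6.54 and 7.06 CPM to 1.68 and 1.16 CPM (-1.70, SE 0.28). The groups did not overlap for either gene. COL1A1, a type I collagen chain listed among the fibroblast markers, went from 109 and 158 CPM to 68.1 and 27.1 CPM (-1.59, SE 0.37, adjusted p = 0.00594). That call was lost without SM08502 replicate 2 and without vehicle replicate 2. COL1A2, its partner chain, and COL3A1, of type III collagen, had 0.802 to 2.07 CPM with vehicle and were not called (0.46 and -0.37).

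Further falls, in matrix, adhesion and other genes, were picked out after their values were seen. COL12A1 (type XII collagen) was at 169 and 206 CPM with vehicle and 73.8 and 51.4 CPM with SM08502 (-1.58). LOX, the enzyme that cross-links collagen, was at 144 CPM in both vehicle libraries and at 67.6 and 53.7 CPM with SM08502 (-1.24). GJA1 (connexin 43), ITGB5 (integrin beta 5), CAV1 (caveolin 1) and IGFBP3, a binding protein of insulin-like growth factors, had log2 changes of -1.46, -1.62, -0.92 and -1.15. All 6 were called in the fit over the 32 libraries, but genes picked by their values give no share of matrix or adhesion genes.

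Several metabolic genes were described in the same way. ASS1, which makes argininosuccinate in arginine synthesis, was at 389 and 344 CPM with vehicle and 107 and 142 CPM with SM08502 (-1.57, SE 0.12). IDH2, the mitochondrial isocitrate dehydrogenase, was at 79.1 and 70.2 CPM and then 30.8 and 32.2 CPM (-1.22), with treated replicates close together. SAT1, which acetylates spermidine in polyamine breakdown, rose from 130.0 and 129 CPM to 253 and 329 CPM (1.15, SE 0.13).

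HIST1H3D, a histone H3 gene of the replication-dependent cluster, fell from 101 and 95.7 CPM to 28.5 and 27.1 CPM (-1.79, SE 0.13, adjusted p = 1.84e-07). The gene was at 0 CPM in the vehicle and SM08502 libraries of Ishikawa-S33Y. Such libraries add no spread to the pooled fit, so this SE and adjusted p are too small. With limma fitted to the Ishikawa libraries alone, the adjusted p was 0.0333. HIST1H3D lies beside a histone H2A gene that overlaps it in RefSeq, and histone H3 genes are near-identical copies, so its count is uncertain. LIX1 fell from 46.6 and 49.9 CPM to 13.2 and 15.2 CPM (-1.70, SE 0.24). Within each group the replicates of both genes lay close together. With a pseudocount of 0.1 CPM the calls of LIX1, COL5A2, WDR49 and C2 were lost.

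**Figure D2:**
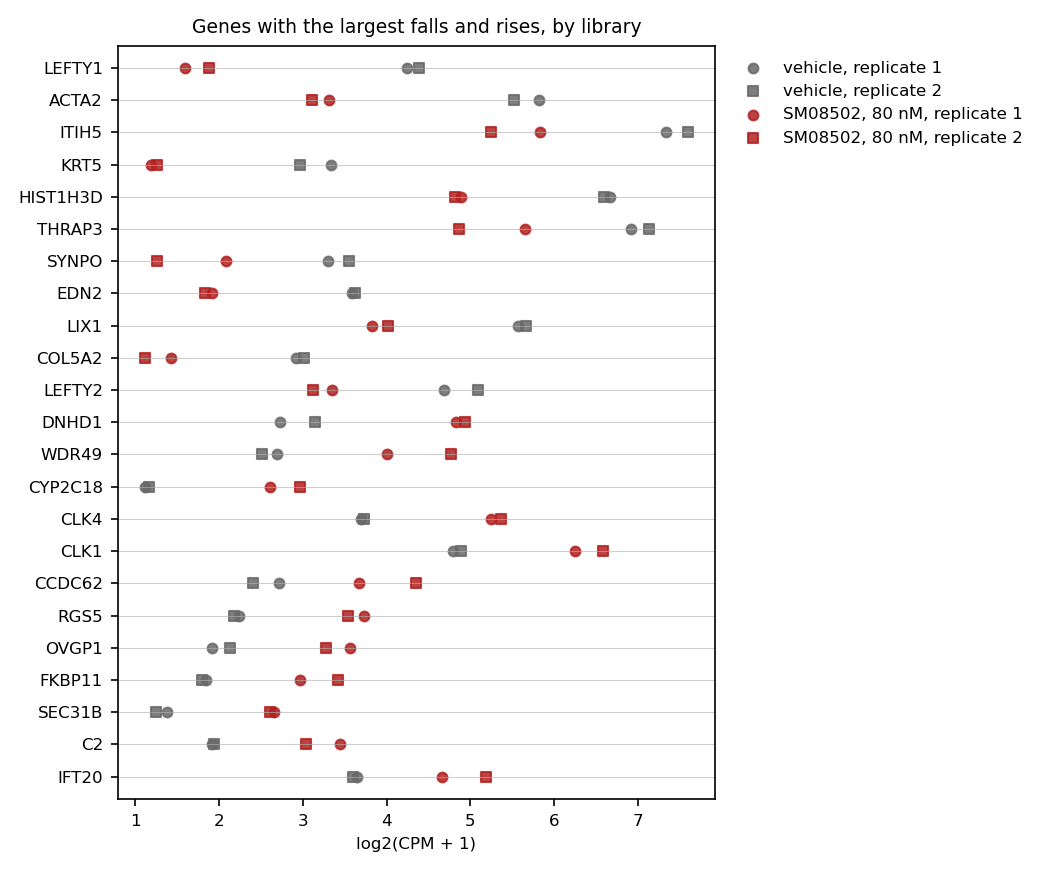
The x axis gives log2(CPM + 1) in each library for the genes with the largest falls (LEFTY1 to LEFTY2) and the largest rises (DNHD1 to IFT20), with vehicle in grey and SM08502 in red, and circles and squares for replicates 1 and 2. In every gene shown both red points lie on 1 side of both grey points, as the naming rule required.

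Among the largest rises were genes of dynein and cilium proteins beside the CLK genes. DNHD1 (chr11:6497280-6572020), which encodes a protein with a dynein heavy chain domain, stood at 5.61 and 7.83 CPM with vehicle and 27.3 and 29.6 CPM with SM08502. Its log2 change was 1.94 (SE 0.28, adjusted p = 8.97e-05). DNAH10, an axonemal dynein heavy chain, went from 5.98 and 6.60 CPM to 15.8 and 18.1 CPM (1.30, SE 0.21). IFT20, a carrier in intraflagellar transport, went from 11.5 and 11.1 CPM to 24.2 and 35.5 CPM (1.30, SE 0.18). FOXJ1, the transcription factor of motile cilia, looked up after these values, moved the opposite way, from 28.9 and 33.9 CPM to 10.6 and 8.33 CPM (-1.64, SE 0.20). No overlap between the groups was seen in any of the 4 genes, and all 4 calls held without SM08502 replicate 2. DNAH10, IFT20 and FOXJ1 overlap other genes in RefSeq.

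The remaining large rises had diverse roles. WDR49, a WD-repeat protein, rose from 5.43 and 4.68 CPM to 15.0 and 26.3 CPM (1.79, SE 0.28), the treated replicates lying well apart. CYP2C18, a cytochrome P450, rose from 1.17 and 1.23 CPM to 5.09 and 6.81 CPM (1.65, SE 0.20). OVGP1, the oviduct glycoprotein, rose from 2.77 and 3.38 CPM to 10.8 and 8.70 CPM (1.40, SE 0.23). RGS5, a regulator of G-protein signalling, CCDC62, a coiled-coil protein, and SEC31B, a coat protein of vesicles leaving the endoplasmic reticulum, rose by 1.43, 1.45 and 1.32. FKBP11, a proline isomerase of the endoplasmic reticulum, and C2, complement component 2, rose by 1.38 and 1.31. The FKBP11 call was lost without SM08502 replicate 2. The C2 call was lost without SM08502 replicate 1 and without either vehicle replicate. The genes at least 2-fold higher had a median of 1.05 CPM with vehicle, against 22.9 CPM for those at least 2-fold lower and 16.9 CPM for all genes tested. Their median genomic length was 18.1 kb, against 32.9 kb and 29.2 kb. All genes called higher had a median of 34.6 kb, so the shorter length did not extend to the rises as a whole.

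The counts for gene lists from here on are to be read beside the shares over all genes tested, 6.50% higher and 8.68% lower. Of 15 CLK and related kinase genes, 4 rose (26.7%) and 0 fell, and these 4 were the CLK genes themselves. CLK1 (chr2:200853009-200864658) went from 26.6 and 28.5 CPM to 74.8 and 95.2 CPM, and CLK4 (chr5:178602664-178627050) from 11.9 and 12.3 CPM to 36.9 and 40.3 CPM. For both, the treated replicates were nearer to each other than to any control. CLK3 went from 41.2 and 43.5 CPM to 83.0 and 68.1 CPM (log2 0.81, SE 0.15), and CLK2 from 21.7 and 24.3 CPM to 37.2 and 31.1 CPM (0.55, SE 0.12). The 11 others, which are the DYRK, HIPK and SRPK kinases and PRPF4B, did not pass the test, with changes from -0.43 to 0.36. The median change of the list was 0.04, that of all genes tested 0.00. The same 4 genes were called without SM08502 replicate 2, and the CLK2 call was lost without vehicle replicate 1.

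SR proteins, the substrates of these kinases, moved in both directions: 2 of 14 rose and 4 fell. SRSF8 fell from 81.5 and 82.8 CPM to 55.2 and 47.1 CPM (-0.68, SE 0.12), and SRSF2 from 283 and 300 CPM to 196 and 201 CPM (-0.55, SE 0.12). SRSF1 and SRSF11 fell by 0.29 and 0.27, while SRSF6 and SRSF10 rose by 0.39 and 0.31. The calls left without SM08502 replicate 2 were SRSF8 and SRSF2. After median re-centring SRSF8, SRSF2 and SRSF6 were called. SRSF6 lost its call without vehicle replicate 2, SRSF10 and SRSF11 without either vehicle replicate, and SRSF1 without SM08502 replicate 1 or vehicle replicate 1. SRSF3 (-0.08) and SRSF7 (-0.12) were not called, and SRSF3 in SM08502 replicates 1 and 2 was at 297 and 410 CPM, either side of the vehicle values of 372 and 363 CPM.

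SR-related cofactors carry arginine-serine repeats without being classical SR proteins. Of 26 such genes 7 rose and 1 fell, with a median change of 0.31, and without SM08502 replicate 2 the counts were 6 and 1. PNISR went from 41.1 and 45.9 CPM to 71.4 and 87.2 CPM (0.85, SE 0.11, adjusted p = 3.61e-05). RBM5, a regulator of exon choice, went from 27.7 and 29.2 CPM to 44.5 and 49.2 CPM (0.70, SE 0.10). In both genes each treated library exceeded each control. ARGLU1, LUC7L3, RSRC2, RBM39 and LUC7L rose by 0.61, 0.58, 0.57, 0.52 and 0.31. The exception was THRAP3, which fell from 120 and 139 CPM to 49.4 and 28.1 CPM (-1.76, SE 0.26, adjusted p = 1.39e-04). THRAP3 was still called without SM08502 replicate 2, whereas LUC7L and LUC7L3 were not. The LUC7L call was also lost without each of the other 3 libraries, and that of LUC7L3 without SM08502 replicate 1 or vehicle replicate 1.

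In the core spliceosome 2 of 36 genes rose and 2 fell, close to the shares over all genes. PRPF3, of the U4/U6 particle, rose from 45.8 and 46.0 CPM to 98.9 and 77.4 CPM (0.92, SE 0.12, adjusted p = 5.43e-05). PRPF8, the large protein at the spliceosome's centre, fell from 459 and 525 CPM to 340 and 183 CPM (-0.97, SE 0.25). U2AF2, which binds the tract before the 3' splice site, fell by 0.70, and SNRPD1, a core Sm protein, rose by 0.33. Of these, only PRPF3 was called without SM08502 replicate 2. PRPF8 also lost its call without vehicle replicate 2, and U2AF2 and SNRPD1 without either vehicle replicate.

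Among 25 hnRNP genes, whose proteins often act against SR proteins at exons, 2 rose (8.0%) and 4 fell (16.0%). Over all genes tested the shares were 6.50% and 8.68%. PTBP2 (0.46) and HNRNPC (0.38) rose, and HNRNPD (-0.51), PCBP2 (-0.46), HNRNPAB (-0.39) and HNRNPDL (-0.36) fell. None of the 6 was called without SM08502 replicate 2. Without vehicle replicate 1 only PCBP2 was called, without vehicle replicate 2 only HNRNPD and PTBP2, and HNRNPDL was not called without SM08502 replicate 1. Of 16 factors of nonsense-mediated decay, the pathway that degrades transcripts with early stop codons, SMG1 (0.45) and RBM8A (0.41) rose. That is 12.5% of the list, against 6.50% of all genes tested. RBM8A was called without SM08502 replicate 2 and SMG1 was not. Both calls were lost without SM08502 replicate 1 and without either vehicle replicate.

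Of 20 cyclins, kinases and related genes that act on RNA polymerase II 6 rose and 0 fell (median 0.21), and 5 rose without SM08502 replicate 2. CDK9, the kinase that releases paused polymerase, was at 24.6 CPM in both vehicle libraries and at 47.6 and 38.6 CPM with SM08502 (0.78, SE 0.13, adjusted p = 3.86e-04). CCNT2, a cyclin partner of CDK9, went from 43.7 and 46.1 CPM to 70.7 and 82.8 CPM (0.76, SE 0.09). CDK13 went from 102 and 124 CPM to 151 and 178 CPM (0.54, SE 0.10). Groups did not overlap in these 3 genes, and in 10 of the 20 genes of the list both treated libraries were the higher ones (26.5% over all genes). CCNL1 (0.50) and CCNL2 (0.57), cyclins that locate to splicing speckles, and CCNH (0.53), of the CDK7 complex, rose as well. The CCNH call was lost without SM08502 replicate 2 and without vehicle replicate 2.

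**Figure D3:**
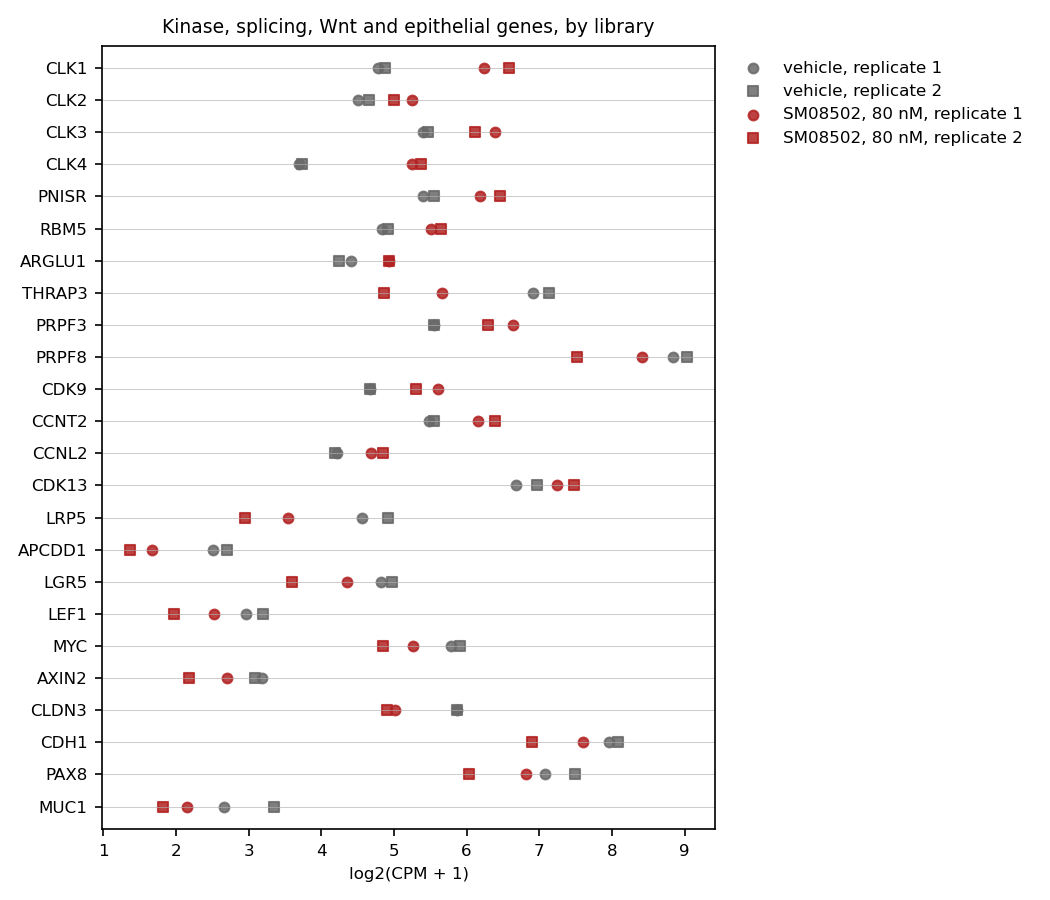
The x axis gives log2(CPM + 1) by library for kinase, splicing, transcription, Wnt and epithelial genes, with vehicle in grey and SM08502 in red, and circles and squares for replicates 1 and 2. The CLK genes, CDK9 and CCNT2 lie to the right with SM08502, whereas in LRP5, the Wnt targets and the epithelial genes the red square (replicate 2) lies furthest left.

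For the Wnt pathway, the results begin with receptors and transducers. Of 22 genes 4 fell (18.2%, against 8.68% of all genes tested) and 0 rose, with a median change of -0.22. LRP5, a co-receptor, fell from 22.5 and 29.3 CPM to 10.7 and 6.75 CPM (-1.49, SE 0.33, adjusted p = 0.00379). LRP6, the other co-receptor, was at 102 and 89.8 CPM with vehicle and 89.4 and 92.1 CPM with SM08502 (-0.08), and its groups overlapped. The Frizzled receptors FZD2, FZD7 and FZD9 fell by 0.70, 0.67 and 0.52, and 7 further Frizzled genes were not called. CTNNB1 itself was at 357 and 313 CPM with vehicle and 295 and 326 CPM with SM08502 (-0.11). None of the 4 calls was made without SM08502 replicate 2. The LRP5 and FZD7 calls were also lost without vehicle replicate 2, and that of FZD9 without any 1 library.

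Of 19 Wnt target genes 6 fell and 0 rose, and the median change was -0.55. APCDD1, a membrane inhibitor of Wnt signalling, fell from 4.69 and 5.53 CPM to 2.20 and 1.58 CPM (-1.08, SE 0.14, adjusted p = 3.80e-05). MYC, a transcription factor of growth, fell from 54.3 and 59.1 CPM to 37.5 and 27.9 CPM (-0.79, SE 0.13, adjusted p = 2.88e-04). Each treated library was below each control in both genes. AXIN2, the feedback inhibitor most used as a reporter of the pathway, went from 8.14 and 7.52 CPM to 5.49 and 3.53 CPM (-0.70, SE 0.18, adjusted p = 0.00991). LGR5, a receptor for R-spondins, LEF1, the nuclear partner of beta-catenin, and NOTUM, a secreted Wnt deacylase, fell by 0.92, 0.84 and 0.70. Targets that did not pass the test included CCND1 (-0.59), ZNRF3 (-0.59), DKK1 (0.38) and SP5 (-0.04). Without SM08502 replicate 2, APCDD1 and MYC were the only targets called, and the median was -0.20. AXIN2 also lost its call without vehicle replicate 1, LEF1 and NOTUM without vehicle replicate 2, and LGR5 without either.

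Of 16 genes that mark endometrial epithelium 8 fell and 0 rose (median -0.48). CLDN3, a tight-junction claudin, fell from 57.5 and 57.6 CPM to 31.3 and 28.9 CPM (-0.91, SE 0.18, adjusted p = 0.00172). CDH1 (E-cadherin) went from 248 and 271 CPM to 193 and 119 CPM (-0.77, SE 0.21), and PAX8, a transcription factor of the female tract, from 134 and 179 CPM to 112 and 64.4 CPM (-0.86, SE 0.26). In all 3 genes the treated libraries were the lower ones, with replicate 2 the lowest. MUC1, KRT8, SOX17, ESR1 (the oestrogen receptor) and CLDN4 fell by 1.02, 0.62, 0.57, 0.54 and 0.41. EPCAM (0.02) and KRT18 (-0.15) did not pass the test. Without SM08502 replicate 2 the calls that remained were CLDN3, CLDN4 and SOX17. Calls were also lost without vehicle replicate 1 (CDH1, CLDN4, ESR1 and KRT8), vehicle replicate 2 (CDH1, ESR1, KRT8, MUC1 and PAX8) and SM08502 replicate 1 (CLDN4). Fewer cells of a state and less RNA per cell cannot be told apart in bulk RNA.

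Most genes of the cell cycle and of cell death did not pass the test. Of 20 mitotic genes 1 rose, TTK, a spindle checkpoint kinase (0.49), and CCNB1 was at 443 and 436 CPM with vehicle and 392 and 478 CPM with SM08502. Of 24 replication genes, RRM2, a subunit of ribonucleotide reductase, and POLE, a replicative polymerase, fell by 0.64 and 0.60. Of 20 p53 targets SESN1 rose (0.46), and CDKN1A, the p21 inhibitor, was not called (-0.18). Among 15 BCL2 family genes BCL2 fell (-0.49), and MCL1, a short-lived survival protein, was at 166 and 153 CPM with vehicle and 149 and 137 CPM with SM08502 (-0.15, adjusted p = 0.374). Of these calls only RRM2 was made without SM08502 replicate 2. Without vehicle replicate 1 the calls of RRM2, POLE, TTK and SESN1 were lost, without vehicle replicate 2 those of POLE, TTK, SESN1 and BCL2, and without SM08502 replicate 1 that of TTK.

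Of 20 genes of homologous recombination and damage kinases, 4 rose (20.0%, against 6.50% of all genes tested) and 1 fell (5.0%, against 8.68%). Of the damage kinases listed, ATR and ATM were called, and CHEK1 and CHEK2 were not. ATR went from 37.2 and 38.8 CPM to 58.7 and 68.6 CPM (0.72, SE 0.10, adjusted p = 4.54e-05), and ATM from 69.5 and 70.1 CPM to 87.2 and 131 CPM (0.61, SE 0.13). RAD51C (0.35) and MRE11A (0.37) rose and BRIP1 (-0.40) fell. ATR alone kept a call in the higher direction without SM08502 replicate 2. RAD51C and MRE11A lost theirs without either vehicle replicate, and BRIP1 without SM08502 replicate 1 or vehicle replicate 2.

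Of 22 genes of cholesterol synthesis 4 fell (18.2%, against 8.68% of all genes tested) and 1 rose (4.55%, against 6.50%). SQLE, the squalene epoxidase, fell by 0.72 (SE 0.17), both treated libraries lying below both controls of 57.0 and 50.1 CPM. DHCR7, a reductase late in the pathway, fell by 0.38, and HSD17B7 rose by 0.53. The calls of SQLE, DHCR7 and HSD17B7 were lost without SM08502 replicate 2 and without vehicle replicate 1, and those of DHCR7 and HSD17B7 also without vehicle replicate 2.

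Among stress and signalling lists the counts stayed small. Of 18 immediate early genes FOSL2, JUND and MYC fell and DUSP6, a phosphatase that acts on ERK, rose from 61.0 and 56.7 CPM to 91.1 and 95.5 CPM (0.66, SE 0.12). FOSL2 (-0.81) and JUND (-0.61), both AP-1 subunits, lost their calls without SM08502 replicate 2 and without either vehicle replicate. Of 18 integrated stress response genes ATF5 (-0.67) and SHMT2 (-0.45) fell. ATF5 was not called without SM08502 replicate 2 or vehicle replicate 1. Of 14 heat shock chaperones HSPB1 (-0.49) and HSPA5 (-0.40) fell, neither of them called without SM08502 replicate 2 or without either vehicle replicate. Interferon-stimulated genes (1 rose and 1 fell of 20) and NF-kappaB response genes (1 and 1 of 18) were near the shares over all genes.

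**Figure D4:**
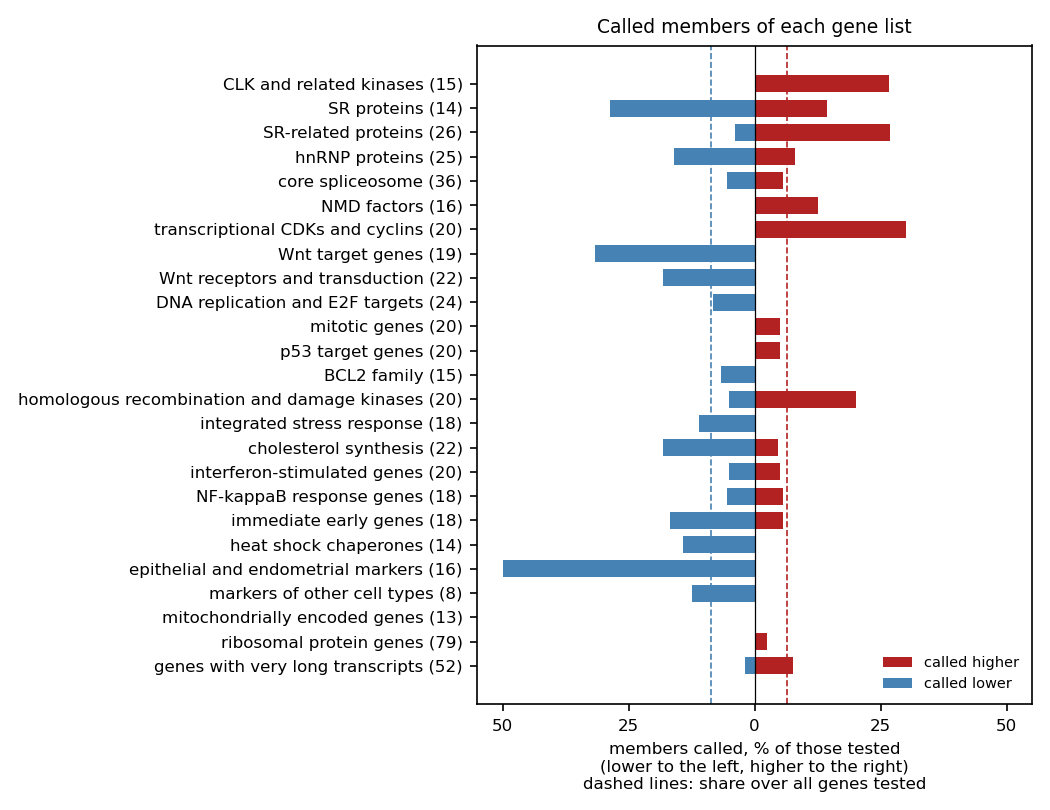
For each gene list, with its number of genes tested in parentheses, bars give the percentage of members called higher (red, to the right) and lower (blue, to the left), and dashed lines give the shares over all 17011 genes (6.50% and 8.68%). Rises lie past the line in the transcriptional CDK, SR-related and CLK lists among others, and falls in the epithelial, Wnt target and SR lists among others.

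Ribosomal protein genes and genes with very long transcripts were followed because libraries differed in them. Of 79 ribosomal protein genes 2 rose and 0 fell with a median change of 0.22. Without SM08502 replicate 1 there were 21 rises, and without replicate 2 there was 1 and the median was -0.07. Of 52 genes with very long transcripts 4 rose and 1 fell, with a median of 0.01. The share of RNA from these classes moved with SM08502 replicate 2. With the level of long-transcript genes relative to ribosomal protein genes as a covariate, 1780 genes were called higher and 2149 lower, 101 and 159 of them at least 2-fold, and all 90 named calls were made. Without SM08502 replicate 2 the call was kept in 50 of the 90.

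Paclitaxel-treated Ishikawa cells with and without SM08502 gave another contrast that differs by SM08502 and shares no library with the one above. In it 1412 genes were called higher (8.30%) and 1045 lower (6.14%). Of the 1105 genes higher against vehicle, 682 (61.7%, and 48.3% of the 1412) were also higher there, and 3 were lower. Of the 1477 lower genes, 764 (51.7%, and 73.1% of the 1045) were also lower there, and 1 was higher. Leaving out paclitaxel replicate 1 or 2 gave 1565 and 5030 calls in that contrast, and leaving out combination replicate 1 or 2 gave 978 and 842.

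The named genes were compared 1 by 1 in the same way. Of 90 named genes called against vehicle, 43 rises and 47 falls, all 90 had the same sign in paclitaxel-treated cells and 66 were called there. LEFTY1 was at 10.9 and 12.1 CPM with paclitaxel and 1.89 and 2.39 CPM with the combination (-1.99), ACTA2 at 28.0 and 23.4 CPM and then 6.29 and 5.60 CPM (-1.94). LRP5 was at 39.1 and 16.7 CPM with paclitaxel and at 7.02 and 7.69 CPM with the combination (-1.67), the paclitaxel replicates lying far apart. CLK1 was at 33.4 and 41.5 CPM and then 94.6 and 96.4 CPM (1.34). In each of these 4 genes the groups did not overlap. Named genes called against vehicle and not there included AXIN2 (-0.34), FZD2 (-0.25), FZD7 (-0.40), SRSF2 (-0.30), SMG1 (0.07), SESN1 (0.08) and SHMT2 (-0.10). Among the lists, the epithelial markers again had 8 of 16 lower, with 1 higher, and the 4 CLK genes were again higher. Counts were also repeated by the transcriptional CDKs and cyclins (6 higher, 0 lower), immediate early genes (1 and 3) and mitotic genes (1 and 0). SR-related genes had 8 higher and 2 lower. Several other lists did not repeat their counts. The hnRNP genes had 4 higher and 0 lower, the SR proteins 2 and 1, and the Wnt receptors and transducers 0 and 1. Wnt targets had 0 higher and 4 lower, and factors of nonsense-mediated decay 1 and 0.

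**Figure D5:**
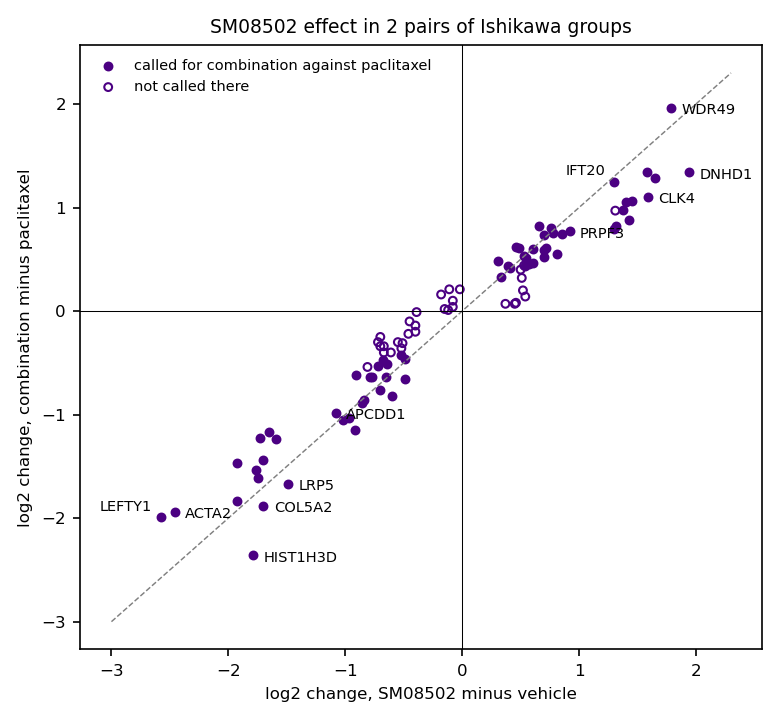
Each point is a named gene, with its log2 change for SM08502 against vehicle on the x axis and for the combination against paclitaxel on the y axis. Filled points were called in the latter, the dashed line marks equal changes, and genes were chosen by their x value apart from those fixed by symbol. The genes called on the x axis all have 1 sign on both axes, with WDR49 and HIST1H3D further from 0 on the y axis than on the x axis.

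The response of Ishikawa was set against that of Ishikawa-S33Y, where dose and RNA input differ with the line and cannot be told apart from it. In Ishikawa-S33Y 4946 genes were called (29.1%). Of the rises in Ishikawa 757 (68.5%, and 24.1% of the 3146 there) were also called higher in Ishikawa-S33Y (18.5% of all genes), and 3 were lower. Of the falls 789 (53.4%, and 43.8% of the 1800 there) were also called lower (10.6% of all genes), and 15 were higher. The difference between lines, tested directly, was called for 413 genes (2.43%), 102 with a higher (0.600%) and 311 with a lower change in Ishikawa (1.83%). That split was 24.7% higher, 56.6% after median re-centring, 50.6% after quantile normalization and 39.9% with PLCG2, RIMBP3C and mitochondrial genes left out. The count was 1307 without Ishikawa SM08502 replicate 1, 129 without replicate 2, 221 and 101 without vehicle replicates 1 and 2, and 67 to 157 without any 1 of the 4 Ishikawa-S33Y libraries.

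Among the members described above, 5 had called differences between the lines. APCDD1 changed by -1.08 in Ishikawa and 0.17 in Ishikawa-S33Y (difference -1.26, adjusted p = 0.00272), and MYC by -0.79 and -0.07 (difference -0.72, adjusted p = 0.0388). LEFTY2 changed by -1.65 and -0.43 (difference -1.23, adjusted p = 0.00381), and LIX1 by -1.70 and -0.43 (difference -1.27, adjusted p = 0.0468). With vehicle, Ishikawa-S33Y had a mean of 1.09 CPM for APCDD1 and 1.86 CPM for LEFTY2, against 5.11 and 28.9 CPM in Ishikawa. The scale shrinks changes at such low levels, so neither of these differences can be told apart from the lower starting level in Ishikawa-S33Y. HIST1H3D fell in Ishikawa and had 0 reads in all 4 Ishikawa-S33Y libraries. The LIX1 difference was lost on leaving out any 1 of the 8 libraries compared, and after re-centring. That of MYC was lost after re-centring and without any 1 of these 8 except Ishikawa SM08502 replicate 1. The APCDD1, LEFTY2 and LIX1 differences were not called with a pseudocount of 0.1 CPM, nor those of APCDD1, LEFTY2 and HIST1H3D with limma voom. For CLK1 (1.58 and 1.70, adjusted p of the difference 0.828), CDH1 (-0.77 and -0.76, 0.995), THRAP3 (-1.76 and -1.63, 0.91) and LRP5 (-1.49 and -2.48, 0.27) no difference was called. LEFTY1 (-2.58 and -1.72) and ACTA2 (-2.46 and -1.36) were not called for the difference either (adjusted p = 0.205 and 0.132).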

How the data were processed

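Libraries were sequenced on a NovaSeq instrument per the labels' protocols, and bcl2fastq, kallisto, STAR and the GRCh38 build are named in the submitters' processing notes. Which program made the table, its annotation and whether counting used strand are not given in the sources used here. The authors deposited log10(CPM + 1) for 35238 genes in 32 libraries. Values were taken back to CPM, which sum to 1000000, and whole reads were recovered for 100% of values (tolerance 0.01 of a read), giving the depths.

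Groups and replicate numbers come from the labels' titles. Genes with CPM above 1 in at least 2 libraries (17011) were tested on log2(CPM + 1), a pseudocount of 1 CPM. limma 3.58.1 in R 4.3.3 was used, with 1 mean for each of 16 groups over 32 libraries, empirical Bayes moderation with an intensity trend, 16 residual and 4.90 prior degrees of freedom. Tests were two-sided with Benjamini-Hochberg adjustment over all genes tested, and called means adjusted p under 0.05. The procedure was tested on simulated data.

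The members and the gene lists were chosen with earlier results of these data known. List counts are descriptions. Named genes were called, with at least 0.5 log2 between any SM08502 and any vehicle library and a higher mean of at least 5 CPM: the 12 largest rises and falls, and the 6 each way also called from Ishikawa libraries alone. Further named genes were the 4 largest called changes per list, the 4 largest differences from Ishikawa-S33Y each way, and fixed genes. Clone-named genes and pseudogenes were not named. Some further genes meeting this rule are not reported here. Host genes of small nucleolar RNAs and splicing tables were not analysed here. Symbols follow the table, and positions and promoter sequences are from RefSeq (GRCh38.p14).

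Alternatives were filters, pseudocount, scalings, no trend, fewer libraries in the fit, sample weights, a length score as covariate, limma voom on recovered reads, a replicate block, and leaving out each library. The length score subtracts the mean log2(CPM + 1) of ribosomal protein genes from that of genes with very long transcripts. Leaving out libraries of other groups, the fit to 16 libraries for the main contrast and the block with crossed numbers were chosen after seeing the data.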

Additional observations from a re-analysis of the deposited data

Results flagged for a closer look

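The SM08502 effect differed between Ishikawa and Ishikawa-S33Y, by the direct limma test of that difference, in 8 genes that met the naming rule. ATP6V1C2, a subunit of the vacuolar proton pump, fell in Ishikawa from 25.1 and 27.5 CPM to 7.81 and 10.9 CPM. In Ishikawa-S33Y it was at 3.06 and 3.35 CPM with vehicle and 4.49 and 5.14 CPM with SM08502 (difference in log2 change -1.88, SE 0.40). HIST1H3D differed by -1.79 (SE 0.19, adjusted p = 4.74e-05) and had 0 reads in Ishikawa-S33Y, so the difference is the Ishikawa fall itself. Libraries with 0 reads add no spread, so this SE and adjusted p are too small.

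In the other 6 genes the called change was in Ishikawa-S33Y. SLC1A3, a glutamate transporter, was at 12.1 and 11.9 CPM with vehicle and 11.9 and 12.2 CPM with SM08502 in Ishikawa, and rose from 9.56 and 9.73 CPM to 32.5 and 34.9 CPM in Ishikawa-S33Y (difference -1.70, SE 0.18). CCDC168 had at most 1.10 CPM in the vehicle and SM08502 libraries of Ishikawa and rose to 7.76 and 7.75 CPM in Ishikawa-S33Y (difference -1.81). BNIP3, a mitophagy receptor, stayed between 46.2 and 52.7 CPM in the same 4 libraries and fell in Ishikawa-S33Y from 202 and 206 CPM to 99.5 and 58.7 CPM (difference 1.43). SYNC (difference 2.02), NIM1K (1.77) and SLC8A3 (1.53) fell in Ishikawa-S33Y and were at most 2.96, 0.730 and 1.16 CPM in those 4 Ishikawa libraries. Their vehicle means were 1.9, 0.4 and 0.5 CPM in Ishikawa and 12.9, 7.99 and 11.1 CPM in Ishikawa-S33Y. A fall could hardly register from such low levels, so these differences cannot be told apart from the lower starting level in Ishikawa. The ATP6V1C2 difference was not called without Ishikawa vehicle replicate 2, and those of CCDC168 and SYNC not without that library or without SM08502 replicate 2.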

How the results depend on the processing

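The count of calls depended most on which libraries set the spread. The 8 Ishikawa libraries alone gave 17 higher and 31 lower genes (17 and 25 at least 2-fold), 13 for the combination against paclitaxel and 10 shared by both contrasts. The 4 compared libraries alone gave 0 in either direction and 0 at least 2-fold (2913 genes at an unadjusted p under 0.05). The 16 libraries of Ishikawa and Ishikawa-S33Y gave 711 higher and 885 lower, 70 differences between lines, 1397 for the combination and 820 shared. Sample weights gave 300 higher (55 at least 2-fold), 681 lower, 230 for the combination and 210 shared. The length score as covariate gave 1780 higher and 1786 differences between lines. Genes at least 2-fold higher numbered 32 with the stricter filter, 185 with a pseudocount of 0.1 and 260 with limma voom, which also gave 340 at least 2-fold lower. Differences between lines numbered 235 with that pseudocount and 702 with quantile normalization.

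Leaving out 1 library gave 84 to 194 genes at least 2-fold higher, 126 to 664 genes at least 2-fold lower, 418 to 1515 higher genes, 588 to 2331 lower genes, 842 to 5030 calls for the combination, 661 to 2305 shared calls and 67 to 1307 differences between lines. The replicate numbers did not pair the vehicle with the SM08502 libraries: the correlation across genes of their replicate differences was -0.57. Among the SM08502, paclitaxel and combination groups of Ishikawa this correlation was 0.44 to 0.86, so their replicate differences ran together. Between vehicle and those groups it was -0.57 to -0.07. With the replicate block 1115 genes were higher and 1531 lower, and with crossed numbers 1255 and 1788.

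Of the 90 named genes called, 77 lost the call in Ishikawa libraries alone, 40 without SM08502 replicate 2 and 4 or fewer under re-centring, quantile normalization, limma voom and both blocks. Signs turned in genes not called. Over the fits without 1 library, SLC1A3 ranged from -0.01 to 0.02, BNIP3 from -0.05 to 0.11 and SYNC from -0.18 to 0.92. In these fits LRP6 ranged from -0.16 to 0.01, SRSF3 from -0.31 to 0.16, SRSF7 from -0.26 to 0.01 and CCNB1 from -0.17 to 0.12. CCNB1 was also 0.05 after re-centring, 0 after quantile normalization and 0.02 without PLCG2, RIMBP3C and mitochondrial genes. Causes were not tested. The floor of 3 reads limits genes under about 0.230 CPM.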
